A study of Mus musculus with 21 samples.

Results

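The basement membrane is the thin sheet of extracellular matrix on which epithelial and other cells rest. The genes described here encode its laminin chains, the integrin subunits through which cells hold on to matrix, and 6 further proteins of the sheet or of its contact with cells. They were chosen by symbol alone, as every gene named *Lama*, *Lamb* or *Lamc* with 1 digit, *Itga* with 1 or 2 characters or *Itgb1* to *Itgb8*, together with *Nid1*, *Nid2*, *Hspg2*, *Agrn*, *Fn1* and *Dag1*. This gave 43 of the 23983 genes of the expression table, of which 5 are laminin alpha, 3 beta and 3 gamma chains, 18 are integrin alpha and 8 integrin beta subunits. All 43 were placed on mm10 by their symbol.

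A laminin is a trimer of an alpha, a beta and a gamma chain. The trimers join into a network that nidogens and perlecan (*Hspg2*) tie to collagen IV, and cells bind it through integrins, each a pair of an alpha and a beta subunit, and through dystroglycan (*Dag1*). The notochord is an axial rod wrapped in a laminin-rich sheath, and mutations in laminin chains are known to disrupt it in fish embryos, while fibronectin (*Fn1*) and its RGD-binding integrins are known for their part in forming somites from paraxial mesoderm.

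RNA was measured in 9 libraries of sorted mouse cells, 1 for each group. All cells came from genetically modified F1G4 (C57BL/6N x SV129) embryonic stem (ES) cells. The 6 embryonic libraries came from pooled embryos made from ES cells with 3 BAC reporters, T::H2B-Venus, Noto::H2B-mCherry and Foxa2::H2B-mTurquoise, at E8.5 (Theiler stage 12) and E9.5 (Theiler stage 16). Notochord progenitors (NotoP) were the cells positive for all 3 reporters in the caudal end, mesodermal progenitors (MP) the caudal cells with T reporter only, and trunk notochord the triple-positive cells of the trunk. The 3 cultured libraries came from ES cells carrying TRE::Foxa2-IRES-EGFP at the Rosa26 locus with T::H2B-mCherry-T2A-irTA and Noto::H2B-mTurquoise BACs. Neuromesodermal progenitors (NMPdiff) were sorted on day 3 and MPdiff on day 4 as T+/Noto- cells, and NotoPdiff on day 4 as Noto+/T+ cells. All 3 cultures received bFGF until day 3, and CHIR99021 until day 3 (NMPdiff) or day 4 (MPdiff and NotoPdiff). Doxycycline was given to the NotoPdiff culture but not to the MPdiff culture, and it switched on the *Foxa2* transgene in cells that expressed T. *Foxa2* RNA of NotoPdiff therefore includes the transgene. The reporters and the transgene sit in clonal ES cell lines, and the embryonic and cultured libraries were sequenced on different instruments, so ratios were formed only within each kind.

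Levels are FPKM values, in which the fragments of a transcript are divided by its length and by the size of the library. They keep no counts, so the counting error of a value is unknown, and with 1 library a group no difference has a replicate check, a test or an error. A difference is given as a log2 ratio after adding 1 to both FPKM values, which understates differences of low genes, and as called when it reaches 3-fold (1.58 on this scale). A gene must reach 2 FPKM in some library to be able to pass, which 28 members and 13080 of all genes did, and shares below are of these. The E8.5 MP library was made from the fewest cells and lists 58.1% of all genes at 0, against 44.7% to 51.7% in the other 5 embryonic libraries. In it 21 members were at 0, against 13 to 17 in those 5, so that a 0 there does not show that a gene was silent. Both trunk notochord libraries also came from fewer cells and held fewer mapped reads than the NotoP libraries, which limits low values and zeros in them. Among members that reached 5 FPKM, genes annotated on the same strand overlap *Itga5*, *Itga6*, *Itga8*, *Hspg2*, *Lama5* and *Lamc1*, whose values may include their reads. Some lower members have such overlaps too, among them *Itga1* with *Pelo*. In bulk libraries, fewer cells of a type and less RNA per cell cannot be told apart.

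The labelled cell types were checked against marker lists of 6 genes each. All 6 notochord markers reached 1 FPKM in both NotoP libraries, in E8.5 trunk notochord and in NotoPdiff, and *Noto* was at 0 in both embryonic MP libraries and in MPdiff. In E9.5 trunk notochord 5 of the 6 did, with *Chrd* at 0. In NMPdiff 4 notochord markers and all 6 markers of paraxial mesoderm progenitors reached 1 FPKM. All 6 markers of paraxial mesoderm progenitors reached 1 FPKM in both NotoP libraries too, with a summed level of 368 and 299.9 FPKM (E8.5 and E9.5) against 214 and 551 FPKM in MP. They summed to 10.7 FPKM in E8.5 trunk notochord and were all at 0 at E9.5. In the 6 embryonic libraries blood markers were at 0 and endothelial markers summed to at most 2.04 FPKM. Gut endoderm markers summed to 53.1 and 137 FPKM in trunk notochord and 83.4 FPKM in E8.5 MP, with *Afp* at 62.2 FPKM there, against at most 5.11 FPKM in the other 3 embryonic libraries. Neural tube markers summed to 37.4 and 30.2 FPKM in NotoP and to 8.61 and 4.57 FPKM in MP, and somite markers to 21.7 and 20.9 FPKM against 69.3 and 52.9 FPKM. In culture, gut endoderm markers summed to 9.65 FPKM in NotoPdiff and 0.774 FPKM in MPdiff, with *Sox17* at 7.46 and 0.545 FPKM. Endothelial markers summed to 8.23 and 3.86 FPKM, with *Flt1* at 7.55 and 0.533 FPKM and *Cdh5* and *Emcn* at 0 in both. Neural tube markers summed to 12.5 and 7.06 FPKM, somite markers to 9.84 and 25.5 FPKM, and blood markers to under 1 FPKM. The part of these markers in the NotoP and MP values below was not tested.

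Between NotoP and MP cells, the largest log2 ratios of any member at E8.5 and in culture were those of the laminin receptor genes *Itga3* and *Itga6*. *Itga3* was the 1 member of the 28 called 3-fold higher in NotoP at both stages, 3.57%, beside 2.4% of all genes (314 of 13080). None was lower at both, beside 0.436%. Without the added 1, the FPKM ratios of *Itga6* (85.8 and 3.40) and *Lama4* (3.15 and 6.84) exceeded 3 at both stages. Integrin alpha3 is a receptor for laminins, among them those with an alpha5 chain. *Itga3* had 19.8 and 12.6 FPKM in NotoP at E8.5 and E9.5 and was listed at 0 in both MP libraries, so no fold is given. The same direction held in culture, where it had 11.4 FPKM in NotoPdiff and 0.179 FPKM in MPdiff, a ratio of 63.8. NMPdiff cells, sorted on day 3, had 8.66 FPKM, so among cultured cells MPdiff had the lowest level. The gene lies on chromosome 11 (95044474 to 95076801, minus strand), and no T or Foxa2 peak overlapped it or its 5 kb flanks.

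*Itga6*, which encodes the alpha subunit of the other main laminin receptors, had 37.8 and 9.52 FPKM in NotoP and 0.441 and 2.80 FPKM in MP at E8.5 and E9.5. NotoP was thus higher at each stage, but the log2 ratio was 4.75 at E8.5 and 1.47 at E9.5, just under the 3-fold limit. It fell under the limit because 1 was added, since the E9.5 FPKM ratio itself was 3.40. In culture, NotoPdiff had 62.6 FPKM, MPdiff 6.22 FPKM and NMPdiff 16.9 FPKM, and the log2 ratio of NotoPdiff was 3.14 over MPdiff and 1.83 over NMPdiff. It was the 1 member 3-fold higher in NotoPdiff than in NMPdiff (3.57%, beside 2.4% of all genes), and none was lower, beside 1.46%. *Itga7*, the third laminin-binding alpha subunit, reached at most 0.141 FPKM in any library.

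*Itga6* (chromosome 2, 71745616 to 71858416, plus strand) is also the laminin receptor gene at which both factors had peaks. In cultures enriched for NotoPdiff cells, immunoprecipitated chromatin gave 6875 peaks for T and 22684 for Foxa2. At *Itga6* a Foxa2 peak with a fold enrichment of 10.2 had its summit 47087 bp from the gene start, and a T peak with a fold enrichment of 5.70 had its summit 48345 bp from it, both in introns and 1258 bp apart. A weaker T peak (fold enrichment 4.05) lay at 13341 bp. The 101 bases centred on the stronger summits are shown because each holds the forkhead sequence TGTTTGC, in capitals, on one strand or the other.
Itga6, Foxa2 summit (mm10 chr2:71792653-71792753, plus strand): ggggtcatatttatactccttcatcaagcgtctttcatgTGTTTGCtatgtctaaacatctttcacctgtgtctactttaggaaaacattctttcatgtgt
Itga6, T summit (mm10 chr2:71793911-71794011, plus strand): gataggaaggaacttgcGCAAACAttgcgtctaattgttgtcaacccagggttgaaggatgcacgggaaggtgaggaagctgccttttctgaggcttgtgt

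Capitals in all sequences shown mark exact matches, on either strand, of TGTTTAC or TGTTTGC, the core of forkhead motifs, and of AGGTGTGA or its part AGGTGT, a T-box motif. A match describes letters and is not a called site. TGTTTAC or TGTTTGC occurred within 50 bases of 17.9% of all Foxa2 summits and 13.1% of all T summits. AGGTGTGA occurred near 2.97% of T and 0.489% of Foxa2 summits, and AGGTGT near 11.4% and 7.79%.

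**Figure D1:**
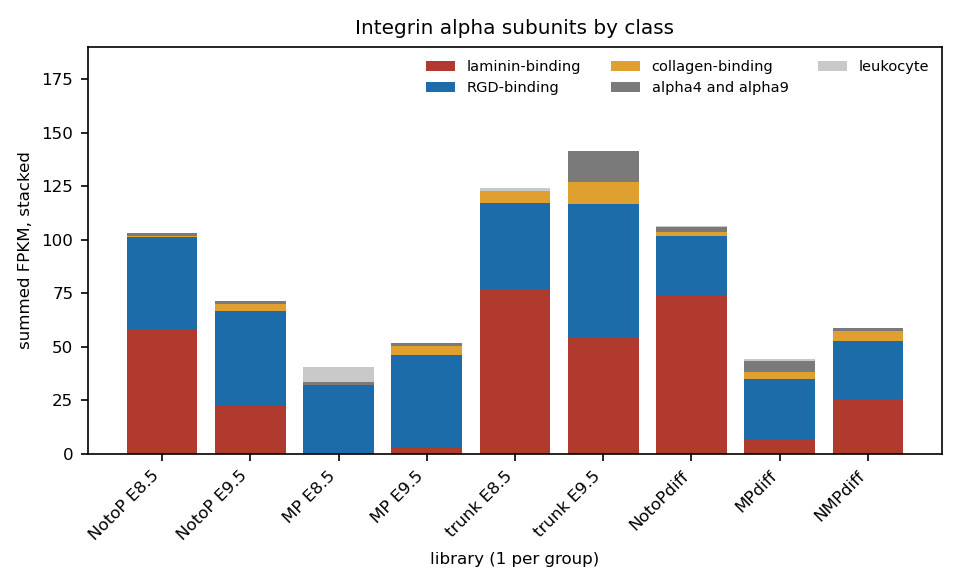
Summed FPKM of the 18 integrin alpha subunits in each of the 9 libraries, 1 library per bar, stacked by the class of ligand that each subunit is known for. The laminin-binding class takes 55.8% and 31.0% of the sum in NotoP at E8.5 and E9.5 and 1.09% and 5.63% in MP.

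Summed over the alpha subunits, the laminin-binding class (*Itga3*, *Itga6*, *Itga7*) took 55.8% of the FPKM in E8.5 NotoP and 31.0% at E9.5. It took 1.09% and 5.63% in MP, 61.6% and 38.2% in trunk notochord, 69.7% in NotoPdiff, 14.9% in MPdiff and 43.6% in NMPdiff. The lowest share in a library with notochord markers was thus above the highest embryonic MP share. MP cells held mostly subunits of the RGD-binding class (*Itga5*, *Itgav*, *Itga8*, *Itga2b*), which bind fibronectin and vitronectin, with 78.6% and 83.0% of the sum against 42.4% and 62.2% in NotoP. The RGD-binding sum itself differed less, with 43.8 and 44.4 FPKM in NotoP and 31.8 and 42.9 FPKM in MP.

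Within the RGD-binding class the subunits did not go together. *Itgav*, the alpha subunit of vitronectin receptors and of the integrin that activates latent TGF-beta, had 33.3 and 28.8 FPKM in NotoP, 9.20 and 19.8 FPKM in MP and 31.2 and 38.1 FPKM in trunk notochord at E8.5 and E9.5. Cultured levels were 17.7 FPKM in NotoPdiff, 10.4 FPKM in MPdiff and 13.7 FPKM in NMPdiff. On the log2 scale NotoP exceeded MP by 1.75 at E8.5 and by 0.52 at the later stage, so *Itgav* passed 3-fold only against the E8.5 MP library. *Itga5*, the fibronectin receptor subunit, ran the other way, with 9.07 and 14.6 FPKM in NotoP and 22.6 and 22.8 FPKM in MP, and never reached 3-fold in any of the 9 comparisons. This direction did not hold in culture, where *Itga5* had 8.34 FPKM in NotoPdiff and 5.99 FPKM in MPdiff, with NMPdiff between them.

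*Itgav* (chromosome 2, 83724397 to 83806916, plus strand) held 2 Foxa2 peaks and 1 T peak, all intronic. The Foxa2 summits were 5969 and 16395 bp from the gene start, with fold enrichments of 9.91 and 6.60, and the T summit was at 18090 bp with 4.86. The window of the first Foxa2 summit is shown because it held 2 forkhead matches, 1 on each strand, and that of the T summit beside it held no match.
Itgav, Foxa2 summit (mm10 chr2:83730316-83730416, plus strand): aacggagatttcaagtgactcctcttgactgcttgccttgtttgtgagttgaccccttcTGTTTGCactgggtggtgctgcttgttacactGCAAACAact
Itgav, T summit (mm10 chr2:83742437-83742537, plus strand): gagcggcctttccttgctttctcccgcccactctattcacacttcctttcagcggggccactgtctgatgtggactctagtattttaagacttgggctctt

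Among beta subunits, *Itgb1*, the common partner of most of these alpha chains, had the highest FPKM in every library. It had 106 and 98.6 FPKM in NotoP, 51.4 and 78.9 FPKM in MP and 91.3 and 148 FPKM in trunk notochord at E8.5 and E9.5, with 72.3 FPKM in NotoPdiff, 52.4 FPKM in MPdiff and 74.0 FPKM in NMPdiff. No comparison reached 3-fold. *Itgb8*, which pairs only with alphav, had 25.6 and 33.3 FPKM in NotoP, 11.7 and 10.8 FPKM in MP and 8.53 and 4.61 FPKM in trunk notochord. The log2 difference of NotoP from MP was 1.06 and 1.54, under the limit, although the E9.5 FPKM ratio without the added 1 was 3.09. The log2 ratio of trunk notochord over NotoP was -1.48 and -2.61. Of the embryonic groups the NotoP libraries thus had the highest *Itgb8* levels. The cultured levels were 6.07 FPKM in NotoPdiff, 3.64 FPKM in MPdiff and 1.77 FPKM in NMPdiff.

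At *Itgb8* (chromosome 12, 119158022 to 119238802, minus strand) the strongest T peak at any member reaching 5 FPKM was found, with a fold enrichment of 8.40 and its summit 548 bp from the gene start, in the annotated UTR. A second T summit and 2 Foxa2 summits were intronic, at 13092, 57314 and 48722 bp. *Itgb5*, another partner of alphav, had 23.0 and 17.9 FPKM in NotoP and 23.8 and 24.7 FPKM in MP, so the caudal groups were close. Trunk notochord had 10.1 and 2.92 FPKM. In culture it was highest in MPdiff, with 32.9 FPKM against 13.4 FPKM in NotoPdiff and 6.76 FPKM in NMPdiff.

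Among the laminin chains, *Lama5* and *Lama1* differed in opposite directions. *Lama5*, the alpha chain of some of the laminins that integrin alpha3 binds, had 22.5 and 17.4 FPKM in NotoP and 8.20 and 3.33 FPKM in MP at E8.5 and E9.5. *Lama1*, the alpha chain of the first laminin of the embryo, had 19.3 and 35.9 FPKM in NotoP and 62.4 and 62.6 FPKM in MP. The log2 ratio of NotoP over MP was 1.35 and 2.08 for *Lama5* and -1.64 and -0.78 for *Lama1*, so each passed 3-fold at 1 stage. Trunk notochord had 35.2 and 21.3 FPKM of *Lama5*, and 4.16 and 18.5 FPKM of *Lama1*.

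In culture the directions were the same between NotoPdiff, with 33.9 FPKM of *Lama5* and 7.98 FPKM of *Lama1*, and MPdiff, with 9.65 and 14.4 FPKM. NMPdiff had 29.2 FPKM of *Lama5* and 2.45 FPKM of *Lama1*, closer to NotoPdiff than to MPdiff. The ratio of *Lama5* to *Lama1* within a library, which needs no comparison between instruments, was 0.131 and 0.0533 in MP, 1.17 and 0.483 in NotoP, and 8.45 and 1.15 in trunk notochord at E8.5 and E9.5. It was 0.670 in MPdiff, 4.24 in NotoPdiff and 11.9 in NMPdiff. Within each stage the ratio was lowest in MP and highest in trunk notochord, and in all 3 embryonic groups it was lower at E9.5 than at E8.5.

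**Figure D2:**
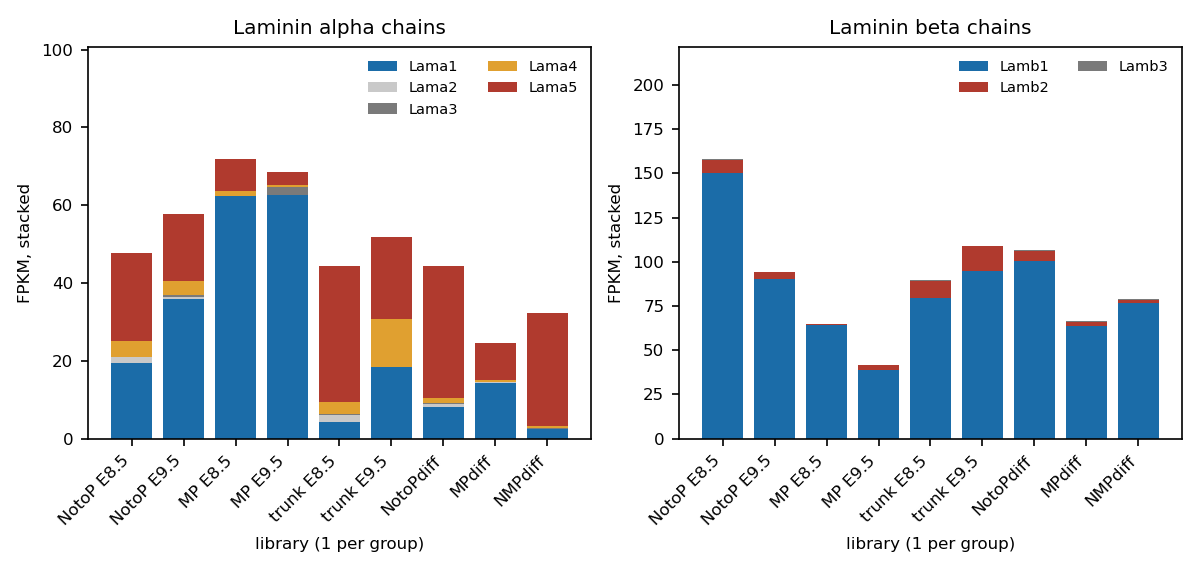
FPKM of the laminin alpha chains (left) and beta chains (right) in each of the 9 libraries, 1 library per bar, stacked by gene. *Lama1* takes 86.8% and 91.3% of the alpha sum in the E8.5 and E9.5 MP libraries, and *Lama5* takes 79.1% in E8.5 trunk notochord.

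As a share of all laminin alpha FPKM, *Lama1* took 86.8% and 91.3% in MP, 40.5% and 62.1% in NotoP and 9.36% and 35.6% in trunk notochord. *Lama5* took 11.4% and 4.86% in MP, 47.3% and 30.0% in NotoP and 79.1% and 41.0% in trunk notochord. *Lama4*, an alpha chain known from vessels and mesenchyme, made up most of the rest in E9.5 trunk notochord, with 12.2 FPKM or 23.5%. Its other levels were 2.91 FPKM in E8.5 trunk notochord, 4.06 and 3.62 FPKM in NotoP, 1.29 and 0.529 FPKM in MP and 1.35, 0.446 and 0.510 FPKM in NotoPdiff, MPdiff and NMPdiff. *Lama2* and *Lama3* reached at most 1.81 and 2.12 FPKM.

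No peak of either factor fell within 5 kb of *Lama5* (chromosome 2, 180176373 to 180225859, minus strand), although a T summit lay 5281 bp outside it. *Lama1* (chromosome 17, 67697259 to 67822647, plus strand), lower in NotoP, held 2 intronic Foxa2 peaks, with summits 14296 and 74774 bp from the gene start and fold enrichments of 10.1 and 7.69, and a forkhead match near each. *Lamc1*, which did not differ by 3-fold, held 3 Foxa2 peaks. The strongest window of each is shown to set an alpha chain lower in NotoP beside a gamma chain present throughout.
Lama1, Foxa2 summit (mm10 chr17:67711505-67711605, plus strand): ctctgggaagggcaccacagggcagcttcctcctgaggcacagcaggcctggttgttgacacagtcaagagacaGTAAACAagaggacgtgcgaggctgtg
Lamc1, Foxa2 summit (mm10 chr1:153224349-153224449, minus strand): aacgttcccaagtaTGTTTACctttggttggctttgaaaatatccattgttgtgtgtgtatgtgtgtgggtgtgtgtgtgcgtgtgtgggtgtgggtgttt

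The beta and gamma positions were each filled mainly by 1 gene. *Lamb1* took 86.8% to 99.3% of the beta sum and *Lamc1* 95.2% to 100% of the gamma sum in the 9 libraries. *Lamb1* had 150.3 and 90.4 FPKM in NotoP, 64.2 and 38.9 FPKM in MP and 79.6 and 94.6 FPKM in trunk notochord at E8.5 and E9.5, with 101 FPKM in NotoPdiff, 63.5 FPKM in MPdiff and 76.7 FPKM in NMPdiff. NotoP was higher than MP by 2.34 and 2.32 times in FPKM, under the 3-fold limit at both stages. *Lamc1* had 32.4 and 55.3 FPKM in NotoP, 32.3 and 38.5 FPKM in MP and 29.7 and 50.2 FPKM in trunk notochord, with 38.8, 21.9 and 25.3 FPKM in NotoPdiff, MPdiff and NMPdiff. Its level thus ranged little compared with the alpha chains.

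*Lamb2*, the beta chain of laminins at synapses and in the kidney filter, had lower levels throughout. It had 7.21 and 3.66 FPKM in NotoP, 0.461 and 2.52 FPKM in MP and 9.39 and 14.4 FPKM in trunk notochord, and 5.32, 2.63 and 1.66 FPKM in NotoPdiff, MPdiff and NMPdiff. On the log2 scale NotoP exceeded MP by 2.49 at E8.5 and by 0.41 one day later, so the call rested on the E8.5 MP library. Trunk notochord had the highest *Lamb2* level at each stage. *Lamb3* and *Lamc3* reached at most 0.913 and 1.48 FPKM.

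Of the 6 genes for proteins that link or fill the sheet, *Agrn*, *Dag1*, *Fn1* and *Nid2* had higher values in NotoP than in MP at both stages. *Agrn* encodes agrin, a heparan sulphate proteoglycan that joins laminin to dystroglycan. It had 56.0 and 47.4 FPKM in NotoP, 16.5 and 18.1 FPKM in MP and 83.2 and 74.7 FPKM in trunk notochord at E8.5 and E9.5. The groups kept this order at both stages, and the log2 ratio of NotoP over MP was 1.70 and 1.34. In culture, NotoPdiff (38.4 FPKM) and MPdiff (37.6 FPKM) had close values and NMPdiff had 17.4 FPKM. *Agrn* held no peak of either factor.

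*Nid2*, a nidogen that bridges laminin and collagen IV, had 81.3 and 47.3 FPKM in NotoP, 43.0 and 37.9 FPKM in MP and 97.7 and 79.3 FPKM in trunk notochord, and 49.3, 41.0 and 44.1 FPKM in NotoPdiff, MPdiff and NMPdiff. *Nid1* was lower than *Nid2* in every library, by 7.68 to 50.1 times, with 1.87 and 2.34 FPKM in NotoP, 0.858 and 2.57 FPKM in MP and 3.27 and 9.44 FPKM in trunk notochord. NotoPdiff, MPdiff and NMPdiff had 6.43, 4.99 and 3.05 FPKM of *Nid1*. *Hspg2*, perlecan, had 7.85 and 15.4 FPKM in NotoP, 15.6 and 17.0 FPKM in MP and 18.2 and 38.9 FPKM in trunk notochord, with 20.3, 15.3 and 13.4 FPKM in the same cultured order. It was thus not higher in NotoP than in MP.

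*Fn1* was the most abundant member in every library. It had 468 and 546 FPKM in NotoP, 375 and 326 FPKM in MP and 185 and 222 FPKM in trunk notochord, with 254 FPKM in NotoPdiff, 477 FPKM in MPdiff and 162 FPKM in NMPdiff. NotoP was higher than MP by 1.25 and 1.67 times, while NotoPdiff was lower than MPdiff, at 0.532 times its level, and none of these reached 3-fold. *Dag1*, dystroglycan, had 22.7 and 14.5 FPKM in NotoP, 22.2 and 12.4 FPKM in MP and 46.5 and 35.4 FPKM in trunk notochord, and 36.5, 20.1 and 29.2 FPKM in NotoPdiff, MPdiff and NMPdiff. Its caudal levels were close at each stage.

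**Figure D3:**
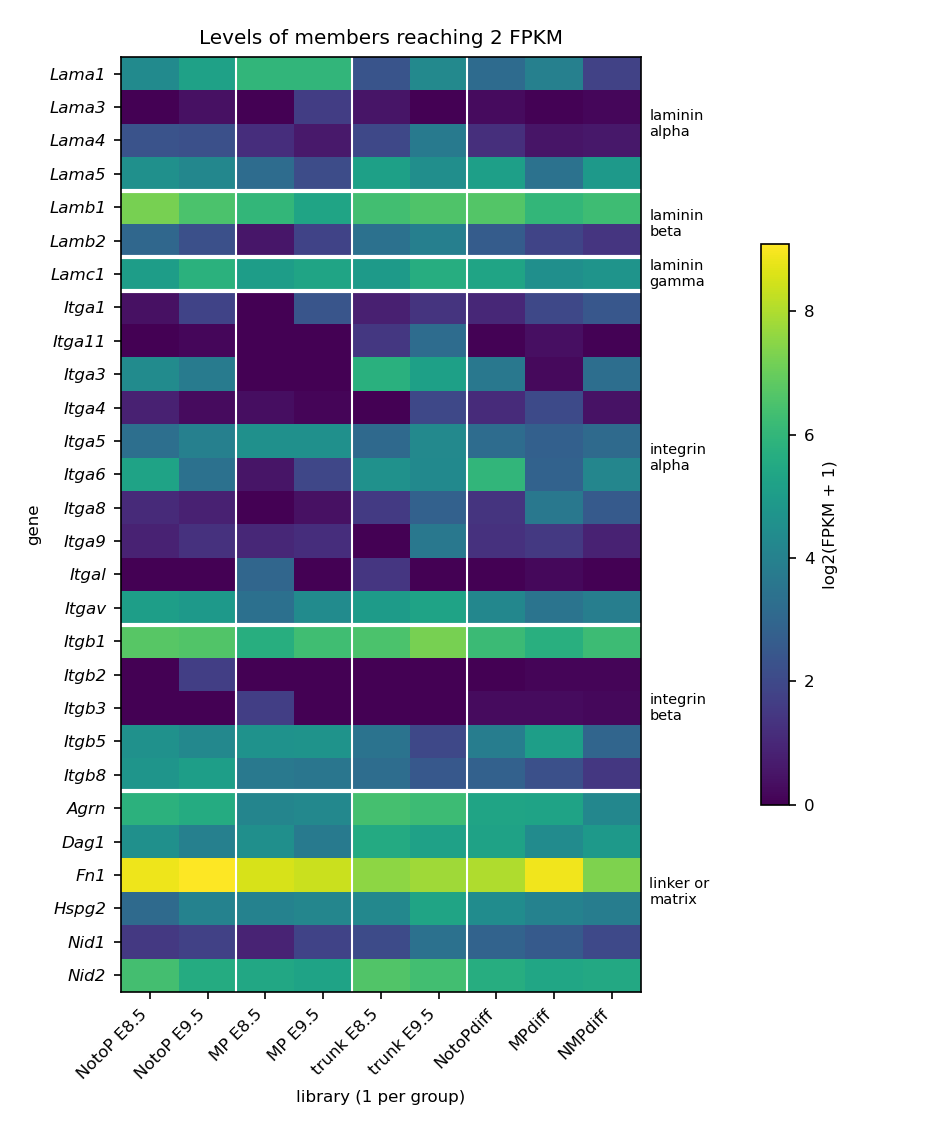
Levels of the 28 members that reached 2 FPKM, as log2(FPKM + 1), in the 9 libraries (1 per group, columns), with genes (rows) ordered by role. *Itga3* is at 0 in both embryonic MP columns, and *Fn1* is the brightest row in every column.

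Taking 1 stage at a time, 5 of the 28 members (17.9%) were 3-fold higher in NotoP than in MP at E8.5, namely *Agrn*, *Itga3*, *Itga6*, *Itgav* and *Lamb2*. That share is close to the 16.2% of all genes. Lower were 3, *Itgal*, *Itgb3* and *Lama1* (10.7%, beside 7.36%). *Itgal* and *Itgb3* passed the 2 FPKM filter only through E8.5 MP and were at 0 in E8.5 NotoP, so the filter fixed these calls. At E9.5, 4 were higher (14.3%, beside 4.82%), namely *Itga3*, *Itgb2*, *Lama4* and *Lama5*, and 0 were lower, beside 2.03%. *Itgb2* passed the 2 FPKM filter only through E9.5 NotoP (2.25 FPKM) and was at 0 in MP, so the filter fixed its call. When E9.5 MP was the comparator in place of the E8.5 MP library, the members 3-fold higher in NotoP of both stages were 3 (10.7%, beside 2.48%), *Itga3*, *Lama4* and *Lama5*, and 0 were lower, beside 1.01%. In culture, 3 were higher in NotoPdiff than in MPdiff (10.7%, beside 2.84%), namely *Itga3*, *Itga6* and *Lama5*, and 1, *Itga8*, was lower (3.57%, beside 0.81%).

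Without a fold limit, 13 of the 28 members (46.4%) had a log2 ratio above 0 at E8.5, at E9.5 and in culture, beside 21.6% of all genes. They were *Agrn*, *Dag1*, *Itga3*, *Itga6*, *Itgav*, *Itgb1*, *Itgb8*, *Lama4*, *Lama5*, *Lamb1*, *Lamb2*, *Lamc1* and *Nid2*. Below 0 in all 3 were 2 members, *Itgb5* and *Lama1* (7.14%, beside 15.8%). The median log2 ratio of the 28 members was 0.44 at E8.5, 0.31 at E9.5 and 0.29 in culture, while the median of all 13080 genes was 0.08, 0.00 and 0.03.

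**Figure D4:**
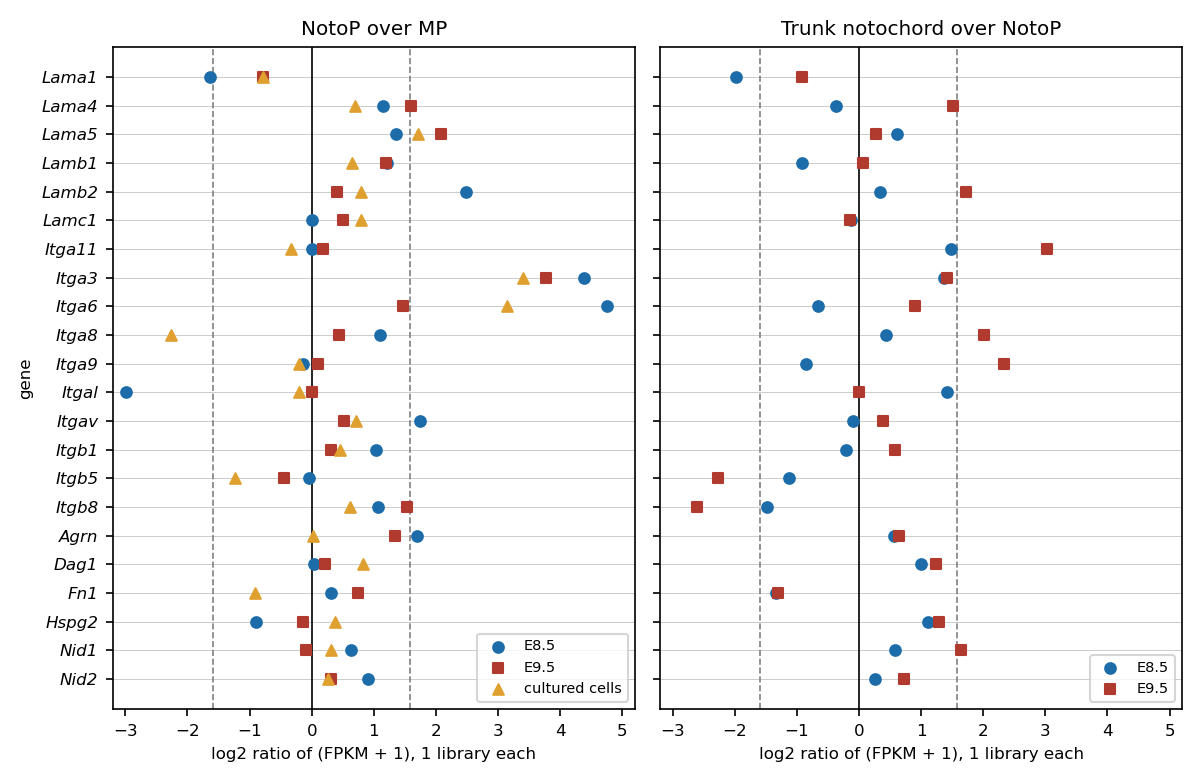
Log2 ratios of (FPKM + 1), 1 library over 1 library, for the 22 members named with all their values, with NotoP over MP on the left (E8.5, E9.5 and cultured NotoPdiff over MPdiff) and trunk notochord over NotoP on the right. Dashed lines mark 3-fold, and *Itga3* lies beyond it in all 3 comparisons on the left.

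NMPdiff and MPdiff differed in some of the same genes. MPdiff was 3-fold higher for *Itga4*, *Itgb5* and *Lama1* (3 of 28, 10.7%, beside 1.65%) and lower for *Itga3* (3.57%, beside 2.71%). The log2 ratio of MPdiff over NMPdiff was 2.16 for *Lama1*, 2.13 for *Itgb5* and -3.03 for *Itga3*. *Lama5* had 9.65 FPKM in MPdiff and 29.2 FPKM in NMPdiff, a log2 ratio of -1.50. MPdiff is part of both this comparison and that with NotoPdiff, so its value enters both.

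Trunk notochord and NotoP were both sorted with the same 3 reporters. At E8.5, however, the trunk cells were those with high Foxa2 reporter, and at both stages the trunk embryos spanned a wider range of somite numbers. The number of members that differed between trunk notochord and NotoP at each stage depended on the pseudocount and the fold limit. No member was 3-fold higher at both stages, beside 1.61% of all genes, and none lower, beside 1.82%. At E8.5, 0 were higher, beside 8.39%, and 1, *Lama1*, was lower (3.57%, beside 7.64%). At E9.5, 6 were higher (21.4%, beside 7.94%), namely *Itga11*, *Itga4*, *Itga8*, *Itga9*, *Lamb2* and *Nid1*, and 3 lower (10.7%, beside 9.47%), namely *Itgb2*, *Itgb5* and *Itgb8*. *Itga11* and *Itga9* passed the 2 FPKM filter only through E9.5 trunk notochord, and *Itgb2* only through E9.5 NotoP. With a pseudocount of 0.1 FPKM in place of 1, 7 were higher and 6 lower at E8.5, and 8 higher and 6 lower at E9.5. With a 2-fold limit, 8 were higher and 4 lower at E8.5, and 10 higher and 4 lower at E9.5. In the same direction at both stages without a fold limit were 10 above 0 (35.7%, beside 25.9%) and 5 below 0 (17.9%, beside 26.7%). The median log2 ratio of the members was 0.00 at E8.5 and 0.49 at E9.5, against 0.00 for all genes at both.

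The alpha subunits 3-fold higher in E9.5 trunk notochord were *Itga11*, *Itga9*, *Itga8* and *Itga4*. *Itga11*, a collagen receptor subunit of mesenchyme, had 1.78 and 8.18 FPKM in trunk notochord at E8.5 and E9.5, 0 and 0.130 FPKM in NotoP, 0 in both MP libraries, and 0.0394, 0.308 and 0.0436 FPKM in NotoPdiff, MPdiff and NMPdiff. *Itga9* had 11.5 FPKM in E9.5 trunk notochord, was listed at 0 in E8.5 trunk notochord and had 0.808 and 1.47 FPKM in NotoP and 1.00 and 1.31 FPKM in MP. Cultured cells had 1.46, 1.84 and 0.850 FPKM in the same order, so no other library came near the E9.5 trunk level. *Itga8* had 1.90 and 6.17 FPKM in trunk notochord, 1.14 and 0.780 FPKM in NotoP, and 0 and 0.316 FPKM in MP. Its highest level was in MPdiff, with 11.6 FPKM, followed by NMPdiff with 4.95 FPKM and NotoPdiff with 1.61 FPKM. *Itga4* reached 2.90 FPKM in E9.5 trunk notochord.

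The trunk libraries also differed from NotoP in markers of other tissues. Beside the gut endoderm sums given above, the somite marker *Pax1* had 13.5 FPKM in E9.5 trunk notochord and was at 0 in the other 5 embryonic libraries. Summed somite markers were 59.4 and 37.0 FPKM in trunk notochord against 21.7 and 20.9 FPKM in NotoP, and neural tube markers 96.9 and 70.1 FPKM against 37.4 and 30.2 FPKM, most of it *Irx3* (64.6 and 53.6 FPKM in trunk notochord). The part of these in the trunk values of the integrins and laminins was not tested.

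*Itga3* reached its highest levels in trunk notochord, with 53.0 and 35.3 FPKM at E8.5 and E9.5, 2.68 and 2.80 times those of NotoP. *Itga6* had 23.5 and 18.7 FPKM there, 0.623 and 1.96 times. *Dag1*, *Hspg2* and *Agrn* were higher in trunk notochord than in NotoP at both stages, with FPKM ratios of 2.05 and 2.45, 2.31 and 2.53, and 1.49 and 1.58. *Fn1* was lower, at 0.396 and 0.406 times the NotoP level. For *Dag1*, *Hspg2*, *Agrn* and *Fn1* the ratios of the stages lay close together, and none reached 3-fold, while *Itga6* was below NotoP at E8.5 and above it at E9.5.

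T or Foxa2 peaks were counted in the gene span widened by 5 kb on each side. A T peak was found at 6 of 43 members (14.0%), *Itga11*, *Itga6*, *Itga8*, *Itgav*, *Itgb6* and *Itgb8*, beside 14.5% of the 22730 genes placed. A Foxa2 peak was found at 26 members (60.5%), beside 28.9%, but members are longer, with a median span of 64.4 kb against 15.7 kb. Per megabase of widened span, members held 12.3 Foxa2 peaks and 2.01 T peaks, against 10.4 and 3.49 over all genes. Of the 9 T peaks at members 8 summits were intronic and 1 lay in a UTR. Of the 55 Foxa2 peaks 49 summits were intronic, 2 lay upstream, 2 downstream, 1 in a UTR and 1 in a noncoding exon.

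Foxa2 peaks lay at members with high and with low RNA. Of the 23 members that reached 5 FPKM, 13 (56.5%) had a Foxa2 peak, and of the 20 that did not, 13 (65%) had one. *Lama2*, which reached at most 1.81 FPKM, held 8 Foxa2 peaks over its 639.7 kb. No peak of either factor lay at 10 of the 23, namely *Agrn*, *Dag1*, *Hspg2*, *Itga3*, *Itga5*, *Itgb1*, *Itgb5*, *Lama5*, *Lamb2* and *Nid1*, whose median span was 48.5 kb against 106 kb for those with a Foxa2 peak. The nearest T summit was 16.2 kb from *Itga3* and the nearest Foxa2 summit 170.1 kb from it. Around the 55 Foxa2 summits at members, 13 windows (23.6%) held TGTTTAC or TGTTTGC, beside the 17.9% over all Foxa2 summits, and around the 9 T summits 0 held AGGTGT, beside 11.4%.

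**Figure D5:**
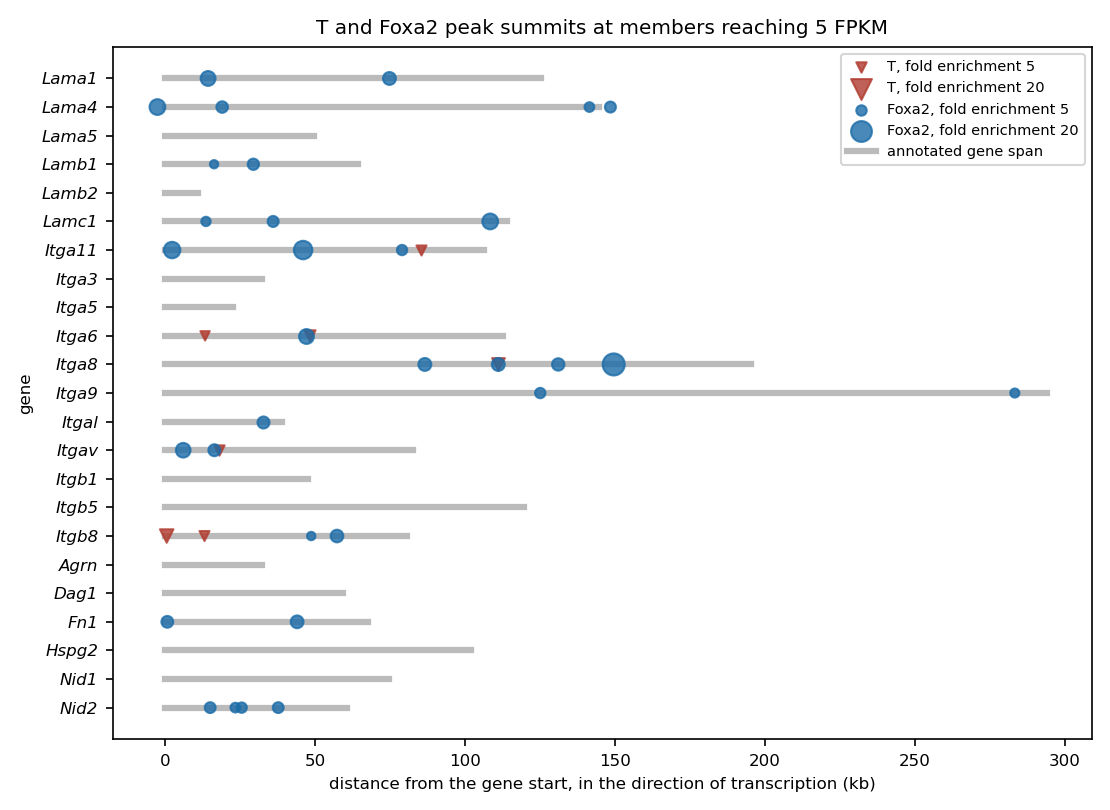
Summits of T peaks (triangles) and Foxa2 peaks (circles) at the 23 members that reached 5 FPKM, by distance from the gene start in the direction of transcription (kb), with marker area proportional to fold enrichment and grey bars for annotated gene spans. Of these genes 13 hold a Foxa2 peak, 5 hold a T peak as well, and 10 hold neither.

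*Itga8* (chromosome 2, 12106632 to 12301922, minus strand) was the 1 member with a peak shared by both factors (2.33%, beside 3.26% of all genes). The T and Foxa2 summits lay 110981 and 111088 bp from the gene start, 107 bp apart, with fold enrichments of 7.49 and 7.75. Another Foxa2 peak at 149599 bp had a fold enrichment of 22.4, the highest of any peak at a member. *Itga8* RNA was lower in NotoPdiff (1.61 FPKM) than in MPdiff (11.6 FPKM). The window of the shared T summit is shown, in which none of the searched sequences occurred.
Itga8, T summit (mm10 chr2:12190891-12190991, minus strand): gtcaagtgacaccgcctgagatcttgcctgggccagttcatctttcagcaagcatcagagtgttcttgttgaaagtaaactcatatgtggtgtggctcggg

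The integrins of blood cells and other low members account for the rest. *Itgad*, *Itgam* and *Itgax* were at 0 in all 9 libraries, and *Itgae* reached at most 0.787 FPKM. *Itgal* had 6.95 FPKM in E8.5 MP and 1.68 FPKM in E8.5 trunk notochord, was at 0 in the other 4 embryonic libraries and had 0.150 FPKM in MPdiff and 0 in NotoPdiff and NMPdiff, while *Itgb2*, its beta partner in leukocytes, was at 0 in E8.5 MP and E8.5 trunk notochord, where all 6 blood markers were at 0 too. *Itgb2* itself had 2.25 FPKM in E9.5 NotoP and *Itgb3* 2.25 FPKM in E8.5 MP, and each was at 0 in the other 5 embryonic libraries. *Itga1* had 0 to 4.48 FPKM. *Itga10*, *Itga2* and *Itga2b* reached at most 1.31, 1.56 and 0.573 FPKM, and *Itgb4*, *Itgb6* and *Itgb7* at most 0.486, 0.0406 and 0.823 FPKM.

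Other genes of the sheet were taken from a list of 67 symbols, of which 65 were in the table and 57 reached 2 FPKM. At both stages, 5 of the 57 (8.77%) were 3-fold higher in NotoP than in MP and 0 lower, beside the 2.4% and 0.436% of all genes. *Frem2* and *Frem1*, matrix proteins that anchor epidermis and other epithelia, had 113 and 94.5 FPKM and 43.4 and 19.5 FPKM in NotoP, against 6.94 and 0.852 FPKM and 7.63 and 4.75 FPKM in MP. *Vtn*, vitronectin, an RGD ligand of alphav integrins, had 51.3 and 18.8 FPKM in NotoP, and 5.95 and 0 FPKM in MP. The others were *Fermt1*, a kindlin that activates integrins, with 11.1 and 23.2 FPKM in NotoP, and *Sdc4*, a syndecan, with 17.6 and 8.64 FPKM. *Frem1*, *Frem2* and *Vtn* were also among the 9 genes of the list (15.8%, beside 2.84% of all genes) 3-fold higher in NotoPdiff than in MPdiff, with 32.4, 45.1 and 52.0 FPKM in NotoPdiff against 2.84, 6.39 and 0.324 FPKM, and 0 were lower, beside 0.81%.

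In trunk notochord over NotoP, 6 genes of the list (10.5%) were 3-fold higher at both stages, beside 1.61% of all genes, and 1, *Fbln2*, was lower (1.75%, beside 1.82%). *Col18a1*, the collagen that yields endostatin, had 63.7 and 112 FPKM in trunk notochord against 17.4 and 14.4 FPKM in NotoP, and *Sparc*, a collagen-binding matricellular protein, 91.6 and 91.8 FPKM against 20.4 and 17.8 FPKM. *Spp1*, osteopontin, an RGD ligand, had 44.9 and 46.9 FPKM against 0.664 and 0.453 FPKM. *Npnt*, nephronectin, the ligand of integrin alpha8, had 3.55 and 4.93 FPKM against 0.215 and 0.294 FPKM. *Spp1* and *Npnt* passed the 2 FPKM filter only through the trunk notochord libraries, so the filter favoured their calls and the 10.5% share. The others were *Fras1*, a partner of the Frem proteins, with 21.7 and 23.2 FPKM in trunk notochord, and *Parva*, an integrin-linked adaptor, with 30.1 and 42.2 FPKM. The part of the gut, somite and neural markers in these values was not tested.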

How the data were processed

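RNA-seq libraries (9, 1 per group) and 2 ChIP-seq libraries of the 21 samples were analysed, and the other 10 were not used here. Samples were grouped by their labels. After read trimming, the authors mapped RNA reads to mm10 (TopHat2 2.1.1, Bowtie 1.2.2, stranded, RefSeq models), collapsed copies by molecular identifier, and deposited FPKM values from Cufflinks 2.2.1 with bias and multi-read correction. The table holds 9 sample columns, and each was used. For ChIP-seq on unsorted NotoPdiff-enriched cultures, the authors aligned reads with Bowtie 1.3.1 and called peaks per library with MACS3 3.0.0b1 at a q-value cutoff of 0.1. The control was not given in the sources used here. The deposited lists give a fold enrichment and −log10 of p and q for each peak, with the offset of its summit.

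Ratios were log2((FPKM + 1)/(FPKM + 1)), called at 3-fold. The rule was run on values simulated from genes with at least 5 FPKM, with planted changes larger than the limit. That run held no genes at 0, so it did not try the rule on low genes or on libraries from few cells. FPKM keeps no counts, so depth per gene is unknown. Gene spans came from GENCODE vM21 and sequences from GRCm38 (mm10), printed on the strand of the gene with coordinates counted from 1. Of the 23983 genes 22730 were placed by a unique symbol. A peak counted when it overlapped a gene span widened by 5 kb by at least 1 bp. Matches were searched within 50 bases of summits. Printed sequences are the strongest peak of a factor outside exons. Members with all values are those that reached 5 FPKM and 3-fold in some comparison, and the laminin chains, *Itgb1* and linking proteins that reached 5 FPKM. Genes of the wider list are named when 3-fold in 1 direction at both stages, and others named were chosen after their values were seen. The members and lists were chosen with earlier results of these data known. The values of 1 member are not reported here. Alternatives numbered 113. The tools were Python 3.11.15, numpy 2.4.6, pandas 2.3.3, pysam 0.24.0, matplotlib 3.10.9, samtools 1.23.1.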

Additional observations from a re-analysis of the deposited data

Results flagged for a closer look

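*Itga8* differed in opposite directions between embryo and culture. For NotoP against MP the log2 ratio was 1.10 at E8.5, where NotoP had 1.14 FPKM and MP was listed at 0, and that of NotoPdiff over MPdiff was -2.27, with 1.61 against 11.6 FPKM. At E9.5 the ratio was 0.44. The difference between embryo and culture was not tested, since each group has 1 library, and the embryonic levels are low.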

How the results depend on the processing

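No paired analysis was possible because each group has 1 library and the labels carry no replicate number. Of 104 recomputed counts, 63 stayed within 1.5 times the value reported. Of 198 recomputed log2 ratios of named members, 185 kept their side of the 3-fold limit, 10 fell below it and 3 passed it. They were those of NotoP over MP and trunk notochord over NotoP at E9.5, and of NotoPdiff over MPdiff. Changes of direction are not counted here. A change of pseudocount cannot turn the direction of a ratio, but rescaling the libraries can turn that of a small ratio. At E8.5 only counts were recomputed.

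Counts that moved are given as higher and lower members. With a pseudocount of 0.1 FPKM, NotoP over MP had 12 higher at E8.5, 7 higher and 1 lower at E9.5, and 3 higher at both stages; trunk notochord over NotoP had 7 higher and 6 lower at E8.5, 8 higher and 6 lower at E9.5, and 1 higher and 1 lower at both. In culture, 2 were lower in NotoPdiff than in MPdiff, 6 higher and 2 lower than in NMPdiff, and 2 lower in MPdiff than in NMPdiff. With a pseudocount of 5 FPKM, NotoP over MP had 2 higher and 0 lower at E8.5 and 1 higher at E9.5, trunk notochord over NotoP had 0 lower at E8.5 and 0 higher and 1 lower at E9.5, 0 were lower in NotoPdiff than in MPdiff, and MPdiff over NMPdiff had 1 higher and 0 lower. With a 2-fold limit, NotoP over MP had 12 higher at E8.5, 8 higher and 1 lower at E9.5, and 7 higher at both. For trunk notochord over NotoP it gave 8 higher and 4 lower at E8.5, 10 higher at E9.5, and 4 higher and 3 lower at both. In culture it gave 2 lower than in MPdiff, 5 higher and 2 lower than in NMPdiff, and 6 higher and 3 lower in MPdiff than in NMPdiff. Asking for 5 FPKM in a library compared left 2 higher at E9.5 (*Itga3*, *Lama5*). With E9.5 MP as the comparator, 3 were higher at both stages. Rescaling libraries by the median of ratios moved no count by more than 1.5 times. With spans widened by 50 kb, 15 members had a T peak and 4 a shared peak, and with summits within 100 bp 0 had a shared peak.

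*Itga3* was among the members higher in NotoP at both stages under each pseudocount, joined by *Itga6* and *Lama2* at 0.1 FPKM. FPKM values of low genes limit most other calls, and at a pseudocount of 5 FPKM the 6 members higher in E9.5 trunk notochord no longer passed 3-fold.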
